A study of Mus musculus with 74 samples.

Results

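The 9 genes described here are 6 transcription factors of the trophoblast lineage (Cdx2, Elf5, Gata2, Gata3, Hand1 and Tead4) and 3 keratins of simple epithelia (Krt8, Krt18 and Krt19). They were chosen by name and were followed across all 35 RNA-seq libraries of mouse embryonic stem (ES) cells, as 9 of 37620 genes listed.

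The trophoblast is the first epithelium that a mouse embryo forms, and it gives rise to the embryonic part of the placenta. Its formation depends on Tead4 and its coactivators, which turn on Cdx2 and Gata3, and Cdx2 and the pluripotency factor Oct4 restrain each other, so that ES cells keep trophoblast factors low. Keratins 8 and 18 pair into the intermediate filaments of the earliest embryonic epithelia, trophectoderm included, and keratin 19 is a further partner of keratin 8.

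The SunTag cells carry a doxycycline (Dox)-inducible CRISPR activator, in which a Cas9 that cannot cut recruits many VP64 activation domains to a promoter. They derive from E14Tg2a ES cells, and those of the 11 Nanog SunTag libraries hold a guide RNA to the Nanog promoter in 1 of 2 clones, C1 and C2. Those of the 15 Nanog/Otx2 SunTag libraries derive from the same clones (C1ON3 and C2ON3) and also hold a guide to Otx2. Either kind was grown in serum with or without LIF, the cytokine that sustains self-renewal (10 ng/mL where given), and with or without Dox (1 µg/mL where given). The Nanog libraries comprised 3 with LIF and without Dox, 2 with both, 3 with neither and 3 with Dox alone, and the Nanog/Otx2 libraries 3, 4, 4 and 4 in that order. The 44iN cells lack functional endogenous Nanog and express it from a Dox-inducible transgene, and they were sampled with LIF and Dox, 24 h after Dox removal and after long-term culture without Dox (2 libraries each). Wild-type E14Tg2a cells, called Tg2a in the labels, were grown in serum and LIF without Dox (3 libraries). The labels did not say that same-clone libraries came from separate cultures, so p-values measure the spread between these libraries, which may be technical.

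Values are normalised counts, that is, estimated read counts divided by 1 size factor per library. The estimated counts summed to between 6107512 and 92244655 per library (median, 29298745). The smallest total belonged to library C2ON3-1 of Nanog/Otx2 cells with LIF and without Dox, in which 1 estimated count was worth 4.63 normalised counts. Nanog, the targeted gene, gave 29487, 23345 and 21940.5 normalised counts in Nanog SunTag cells with LIF and 93813 and 75226 with Dox added. Without LIF it gave 7032, 8484 and 2234, and 54732, 55641 and 45041 with Dox. In 44iN cells it gave 13366 and 18394 with Dox, 706 and 739 at 24 h and 276 and 228 in the long term. In Nanog/Otx2 cells the ranges of Nanog were 1974 to 20533 without Dox and 31697 to 48558 with it, so that in every pair of groups compared the Dox libraries were higher. Otx2, the other target, ranged from 736 to 5148 without Dox and from 3214 to 7347 with Dox in these cells. Pou5f1, which encodes the pluripotency factor Oct4, was read in all 35 libraries (6786 to 47215).

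Compared per kilobase of exons and averaged over the 35 libraries, the keratins were the most abundant of the 9 genes. The trophoblast factors other than Tead4 were scarce. The order differed by condition, and in 44iN cells 24 h after Dox removal Tead4 was above each keratin per kilobase. Over the 35 libraries the mean level was 459 normalised counts per kilobase for Krt18, 287 for Krt8, 102 for Krt19 and 73.7 for Tead4. It was 10.3 for Gata2, 6.63 for Gata3, 4.96 for Hand1, 3.03 for Cdx2 and 0.517 for Elf5. On the mm9 annotation, Krt8 (chr15:101827142-101834773, minus strand) and Krt18 (chr15:101858647-101862457, plus strand) lay 23873 bases apart and pointed away from each other, whereas Krt19 lay in the other keratin cluster (chr11:100002124-100009979, minus strand). Tead4 lay at chr6:128174306-128250841 (minus strand), Gata2 at chr6:88143885-88157024 (plus), Gata3 at chr2:9778705-9811661 (minus), Elf5 at chr2:103251845-103291146 (plus), Cdx2 at chr5:148112381-148118846 (minus) and Hand1 at chr11:57642207-57646320 (minus). A search of the mm9 genome for copies of at least 65 bases, the read length, at 97% identity or more found 1, a copy of Krt8 with 1734 aligned bases at 97.9% identity (chr7:24142113-24143830) in no annotated gene. Reads of Krt8 could have been shared with it, so the level of Krt8 is uncertain to that extent. The other 8 genes had no such copy.

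The promoters of the neighbours Krt8 and Krt18 are shown because this neighbouring pair rose together on LIF withdrawal. RefSeq (GRCm38.p6) gave a promoter for 6 of the 9 genes. The 250 bases before the start sites are printed 5′ to 3′ on the strand of the gene, at chr15:102004343-102004592 (minus strand) for Krt8 and chr15:102027966-102028215 (plus strand) for Krt18, with motif matches in capitals.
Krt8: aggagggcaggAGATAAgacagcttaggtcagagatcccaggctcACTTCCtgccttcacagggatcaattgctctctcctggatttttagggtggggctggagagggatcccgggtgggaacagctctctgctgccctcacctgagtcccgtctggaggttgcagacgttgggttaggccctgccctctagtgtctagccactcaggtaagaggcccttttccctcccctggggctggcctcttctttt
Krt18: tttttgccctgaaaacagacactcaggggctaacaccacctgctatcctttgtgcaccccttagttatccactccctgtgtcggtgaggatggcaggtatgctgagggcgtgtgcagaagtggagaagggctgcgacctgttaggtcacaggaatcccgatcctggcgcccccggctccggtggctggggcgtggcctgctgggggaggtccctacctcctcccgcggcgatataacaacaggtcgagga
Of 7 motifs searched on both strands, Krt8 held the GATA motif AGATAA, whose first base lay 239 bases before the start site, and the ETS motif GGAAGT on the opposite strand (ACTTCC here), 205 bases before it. Krt18 held none of the 7. Among 32851 promoters of this length, AGATAA was found in 9.99% and GGAAGT in 19.7%. The other motifs were the TATA box TATAAA (12.4%), the TEAD motif GGAATG (12.6%), the AP-1 motif TGANTCA (6.75%), the GC box GGGCGG (32.7%) and the CDX motif TTTATNG (9.81%). A match describes these letters only, and no match says only that they are not in this window.

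LIF withdrawal moved Krt8 and Krt18 one way and Tead4 the other. Without Dox, Krt8 and Krt18 rose with either guide set, whereas Tead4 fell with or without Dox, and Krt19 fell in Nanog SunTag cells without Dox. Dox raised Krt8 where LIF was present. It raised Tead4 with both guide sets where LIF was absent and in Nanog SunTag cells also where LIF was present, and the Dox response of Tead4 was not shown to differ with LIF. A gene was tested where all libraries of some condition of the fit held 10 or more normalised counts, which Cdx2 and Elf5 reached in no fit. Hand1 was not tested in the fit of the Nanog/Otx2 libraries or in that of 44iN cells with Dox and at 24 h. It entered the SunTag fits only because it was high in Nanog cells with LIF and Dox, so counts over tested genes do not stand for all 9. Genes with a Benjamini-Hochberg adjusted p under 0.05 in edgeR's quasi-likelihood test were called, and every adjusted p below comes from that test unless another is named.

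In Nanog SunTag cells, LIF withdrawal without Dox changed 4 of 7 tested members, beside 41.5% of all genes tested, and with Dox 2 of 7 (Tead4 and Hand1), beside 32.6%. Dox changed 1 of 7 without LIF, beside 5.14%, and 2 of 7 with LIF, beside 0.563%. With the Nanog/Otx2 guides, LIF withdrawal changed 4 of 6 without Dox, beside 49.8%, and 4 of 6 with Dox, beside 36.5%. Dox changed 2 of 6 of these without LIF, beside 17.3%, and 4 of 6 with LIF, beside 22.9%. For Dox with LIF in Nanog SunTag cells, both calls were lost in a fit of the libraries with LIF alone. These shares of 6 or 7 genes are not read as a result about the members as a group. Comparisons within a guide set share libraries, so their values are set side by side and were not correlated.

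**Figure D1:**
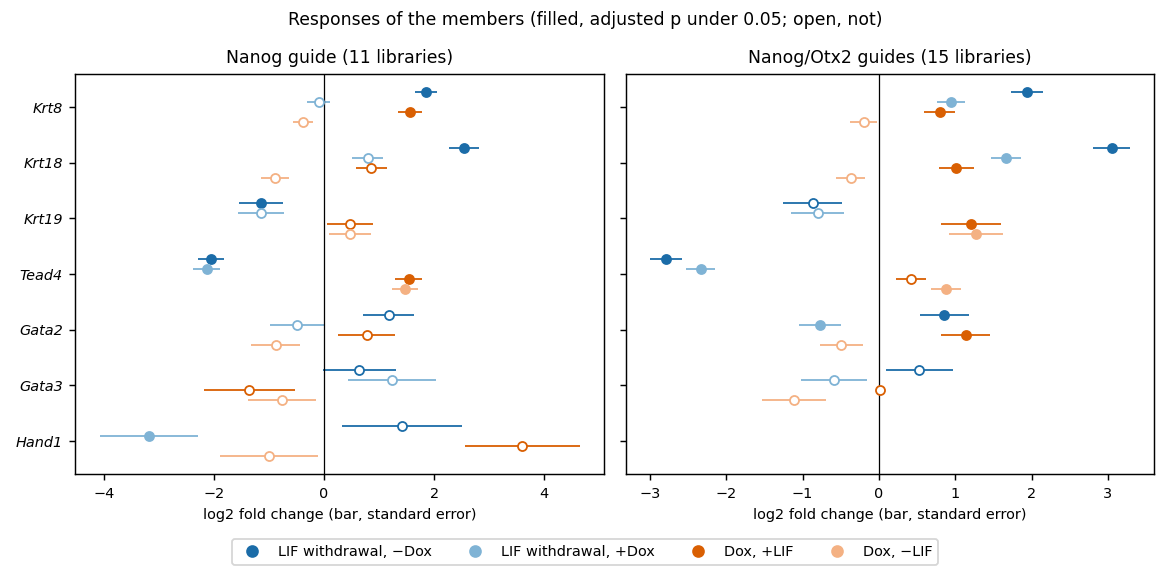
Log2 fold changes of the tested members (points, with standard errors as bars) for LIF withdrawal and for Dox in the 11 Nanog (left) and 15 Nanog/Otx2 (right) SunTag libraries. Filled points passed an adjusted p of 0.05 in edgeR. Tead4 lay left of 0 and Krt18 right of 0 for LIF withdrawal in both panels. Hand1 was tested only on the left, and the standard error of Gata3 for Dox with LIF on the right, where the change was 0.01, is not drawn.

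In SunTag cells without Dox, Krt8 and Krt18, the paired keratins, were higher in every library without LIF than in any library with LIF. Tg2a cells, also grown with LIF and without Dox, gave 501, 838 and 1384 normalised counts of Krt8 and 383, 746 and 1265 of Krt18. These ranges overlapped those of the SunTag libraries without LIF. With the Nanog guide without Dox, Krt18 gave 102, 249.8 and 203 normalised counts with LIF and 1238, 950.1 and 1110.0 without it. It thus rose 5.82-fold (log2 fold change 2.54, standard error 0.27, adjusted p = 3.29e-05). Krt8, its partner, gave 126, 191 and 137 with LIF and 592, 529 and 536 without it, a 3.6-fold rise (log2 fold change 1.85, standard error 0.20, adjusted p = 3.89e-05). For Nanog/Otx2 cells without Dox, Krt18 gave 228, 150.2 and 153 with LIF and 2032, 1238, 1591 and 1273 without. Krt8 in the same libraries gave 254, 226 and 282 with LIF and 1299, 811, 985 and 844 without. Library C1ON3-1 was the highest of those without LIF for both keratins, and the groups with and without LIF were well separated. The rise was 8.29-fold for Krt18 (log2 fold change 3.05, standard error 0.24, adjusted p = 1.3e-07) and 3.85-fold for Krt8 (log2 fold change 1.94, standard error 0.21, adjusted p = 2.87e-06). Across all single libraries left out, these 4 calls held. Bulk RNA cannot tell more cells that express a keratin from more keratin RNA in each cell.

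With Dox present, LIF withdrawal left the pair at closer levels in Nanog SunTag cells. Krt8 gave 479 and 424 normalised counts with LIF and Dox and 463, 413 and 369 with Dox alone, and these ranges overlapped (log2 fold change -0.09, standard error 0.21, adjusted p = 0.755). Krt18 gave 349 and 335 with LIF and 629.6, 507 and 605 without it (log2 fold change 0.79, standard error 0.29, adjusted p = 0.0531), with no overlap. With a block for the clone, this difference of Krt18 passed the threshold (0.83, adjusted p = 0.0262). Among Nanog/Otx2 cells with Dox, both keratins rose on LIF withdrawal. Krt18 went from 353, 294, 419 and 374 to 1496, 865, 1213 and 1053 (log2 fold change 1.67, standard error 0.20, adjusted p = 1.75e-05), and Krt8 from 441, 415, 458 and 410.1 to 1207, 706, 755 and 683 (log2 fold change 0.95, standard error 0.18, adjusted p = 0.000865). The lowest library without LIF was above the highest with LIF for either gene.

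**Figure D2:**
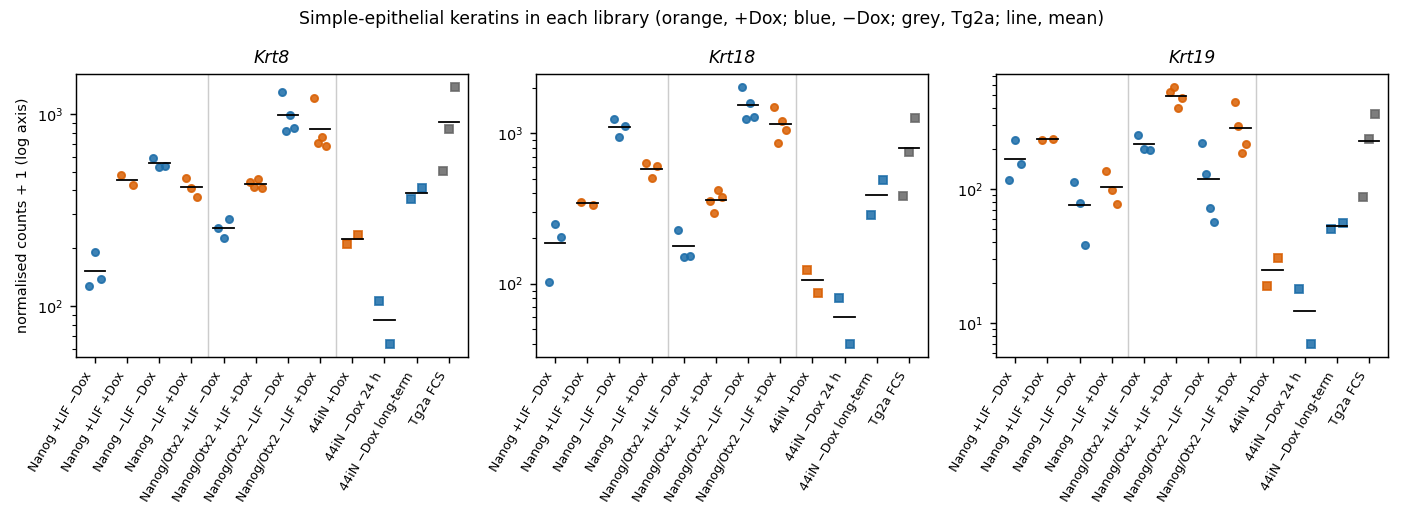
Normalised counts plus 1 of Krt8, Krt18 and Krt19 in each of the 35 libraries, on a log axis, by condition (orange, with Dox; blue, without Dox; grey, Tg2a; line, mean). The group means of Krt8 and Krt18 were highest in Nanog/Otx2 cells without LIF and Dox and lowest in 44iN cells 24 h after Dox removal, and that of Krt19 was highest in Nanog/Otx2 cells with LIF and Dox.

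Dox raised Krt8 where LIF was present. Among Nanog SunTag cells with LIF, Krt8 went from 126, 191 and 137 normalised counts without Dox to 479 and 424 with Dox, both Dox libraries lying above the other 3 (log2 fold change 1.56, standard error 0.21, adjusted p = 0.0159). Krt18 gave 102, 249.8 and 203 without and 349 and 335 with Dox, also with no overlap (log2 fold change 0.86, standard error 0.29, adjusted p = 0.205). In Nanog/Otx2 cells with LIF, Krt8 rose from 254, 226 and 282 to 441, 415, 458 and 410.1 (log2 fold change 0.80, standard error 0.21, adjusted p = 0.0123), and Krt18 from 228, 150.2 and 153 to 353, 294, 419 and 374 (log2 fold change 1.01, standard error 0.23, adjusted p = 0.00625). The call of Krt8 in Nanog SunTag cells was lost without Dox library C1-1 (adjusted p = 0.117) or uninduced library C2-2 (0.0641) and in a fit of the 5 libraries with LIF alone (0.256). With the Nanog/Otx2 guides it was lost without uninduced library C1ON3-2 (0.0704).

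Without LIF, the log2 fold changes of both keratins with Dox lay below 0, and none passed the test. In Nanog SunTag cells Krt8 had 592, 529 and 536 normalised counts without Dox and 463, 413 and 369 with it (log2 fold change -0.38, standard error 0.19, adjusted p = 0.307). Krt18 had 1238, 950.1 and 1110.0 without Dox and 629.6, 507 and 605 with it, so that each Dox library was below each library without Dox. The difference of Krt18 missed the threshold (log2 fold change -0.89, standard error 0.25, adjusted p = 0.0635), and it passed once the clone was fitted as a block (-0.90, adjusted p = 0.0296). It also passed with DESeq2 (adjusted p = 0.0057) and in an edgeR fit of the libraries without LIF alone (0.00854). For Nanog/Otx2 cells the libraries overlapped for Krt8 (1299, 811, 985 and 844 without and 1207, 706, 755 and 683 with Dox, log2 fold change -0.20, standard error 0.18, adjusted p = 0.484). They also overlapped for Krt18 (2032, 1238, 1591 and 1273 without and 1496, 865, 1213 and 1053 with Dox, log2 fold change -0.37, standard error 0.19, adjusted p = 0.206), which passed with the clone and number as a block (-0.37, adjusted p = 0.0142).

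The Dox response of both keratins differed with LIF, by a test of the difference itself. With the Nanog guide 2 of 7 tested members passed this test, Krt8 and Krt18, beside 1.93% of genes, and in Nanog/Otx2 cells 3 of 6, these keratins and Gata2, beside 9.7%. For Krt8 the response without LIF minus that with LIF was -1.94 on the log2 scale (standard error 0.29, adjusted p = 0.00852) in Nanog SunTag cells. Among Nanog/Otx2 cells it was -1.0 (standard error 0.27, adjusted p = 0.0298). For Krt18 it was -1.75 (standard error 0.38, adjusted p = 0.0402) and -1.39 (standard error 0.30, adjusted p = 0.00888) in that order. The call of Krt18 in Nanog SunTag cells was lost without any 1 of 9 of the 11 libraries (0.0673 to 0.128), all but C1-1 and C2-1 with LIF alone, and that of Krt8 in Nanog/Otx2 cells without any 1 of 8 of the 15 (0.0511 to 0.0998), namely C1ON3-1 and C1ON3-2 with LIF alone, C1ON3-1 and C2ON3-1 with LIF and Dox, C1ON3-1 with neither, and C1ON3-2, C2ON3-1 and C2ON3-2 with Dox alone. The other 2 held without each library.

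Krt19, the small keratin that can replace Krt18 as the partner of Krt8, did not follow this pair. On LIF withdrawal without Dox in Nanog SunTag cells it gave 115, 233 and 152 normalised counts with LIF and 112, 77.6 and 36.9 without it, a fall to lower values in all 3 libraries (log2 fold change -1.15, standard error 0.39, adjusted p = 0.0355). In Nanog/Otx2 cells without Dox it gave 250.1, 198 and 194 with LIF and 219, 128, 70.8 and 55.6 without, where library C1ON3-1 lay among those with LIF (log2 fold change -0.87, standard error 0.39, adjusted p = 0.075). With Dox, Nanog SunTag cells gave 233 and 235 with LIF and 135, 97.7 and 76.8 without (log2 fold change -1.15, standard error 0.42, adjusted p = 0.0539). Nanog/Otx2 cells with Dox gave 525, 577, 402 and 474 with LIF and 446, 297, 184 and 215 without (log2 fold change -0.80, standard error 0.35, adjusted p = 0.0832). The last 3 differences missed the threshold and passed it with the block for the clone, or the clone and number in Nanog/Otx2 cells (-0.78, adjusted p = 0.014, -1.23, adjusted p = 0.0323, and -0.89, adjusted p = 0.00261, in that order). The called fall in Nanog SunTag cells was lost without any 1 of 5 of the 11 libraries (0.0543 to 0.144), namely C2-1 and C2-2 with LIF alone, C1-2 and C2-1 with neither, and C1-1b with Dox alone, and in a fit of the libraries without Dox alone (0.0708).

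Dox raised Krt19 in Nanog/Otx2 cells at either LIF state. With LIF it went from 250.1, 198 and 194 normalised counts to 525, 577, 402 and 474, all 4 Dox libraries lying above the 3 others (log2 fold change 1.21, standard error 0.39, adjusted p = 0.0384). Without LIF it went from 219, 128, 70.8 and 55.6 to 446, 297, 184 and 215, with an overlap (log2 fold change 1.27, standard error 0.36, adjusted p = 0.024). Among Nanog SunTag cells the values were 115, 233 and 152 without and 233 and 235 with Dox where LIF was present (log2 fold change 0.47, standard error 0.42, adjusted p = 0.642). They were 112, 77.6 and 36.9 without and 135, 97.7 and 76.8 with Dox where it was absent (log2 fold change 0.47, standard error 0.39, adjusted p = 0.596), with overlap. The call with LIF was lost without any 1 of the 7 libraries with LIF (0.0516 to 0.131). The call without LIF was lost without C2ON3-1 or C2ON3-2 of the uninduced or C1ON3-1 or C1ON3-2 of the Dox libraries (0.0552 to 0.0831), and in a fit of the libraries without LIF alone (0.0817).

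Tead4, the DNA-binding factor through which Yap and Taz act and which the trophectoderm needs, fell on LIF withdrawal in every setting. In Nanog SunTag cells without Dox it gave 222, 261 and 291 normalised counts with LIF and 65.1, 63.3 and 60.2 without it, a 4.15-fold fall (log2 fold change -2.05, standard error 0.24, adjusted p = 6.57e-05). With Dox it gave 964 and 561 with LIF and 193, 165 and 154 without, a 4.37-fold fall (log2 fold change -2.13, standard error 0.25, adjusted p = 0.000204). With the Nanog/Otx2 guides without Dox it gave 319, 309 and 315 with LIF and 50.2, 58.1, 33.3 and 44.5 without, a 6.92-fold fall (log2 fold change -2.79, standard error 0.21, adjusted p = 6.91e-08). The replicates were close together, and no library with LIF came near one without. For Nanog/Otx2 cells with Dox it gave 497, 472, 335 and 365 with LIF and 76.4, 105, 62.2 and 88.1 without, a 5.05-fold fall (log2 fold change -2.34, standard error 0.19, adjusted p = 4.75e-07). These 4 calls held without each library.

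Dox raised Tead4 without LIF, to levels that stayed below those of cells with LIF. With the Nanog guide it went from 65.1, 63.3 and 60.2 normalised counts without Dox to 193, 165 and 154 with it, with no overlap (2.76-fold, log2 fold change 1.47, standard error 0.23, adjusted p = 0.00435). The lowest library with LIF and without Dox had 222. Among Nanog/Otx2 cells it went from 50.2, 58.1, 33.3 and 44.5 to 76.4, 105, 62.2 and 88.1, again with no overlap (1.84-fold, log2 fold change 0.88, standard error 0.20, adjusted p = 0.00726). Both calls held without each library. With LIF, Dox raised Tead4 in Nanog SunTag cells from 222, 261 and 291 to 964 and 561 (log2 fold change 1.54, standard error 0.25, adjusted p = 0.0234). Library C1-1 was by far the higher of the Dox libraries, and without it the call was lost (1.12, adjusted p = 0.169), as it was in a fit of the 5 libraries with LIF alone (0.256) and without C2-1 or C2-2 of the uninduced libraries with LIF or C1-1 with Dox alone (0.0501 to 0.0831). In Nanog/Otx2 cells with LIF, Tead4 had 319, 309 and 315 without Dox and 497, 472, 335 and 365 with it (log2 fold change 0.42, standard error 0.20, adjusted p = 0.134), which passed with the block for clone and number (0.46, adjusted p = 0.0221). The test of a difference of this Dox response without and with LIF did not pass, at -0.07 (standard error 0.35, adjusted p = 0.954) in Nanog and 0.45 (standard error 0.28, adjusted p = 0.376) in Nanog/Otx2 cells.

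**Figure D3:**
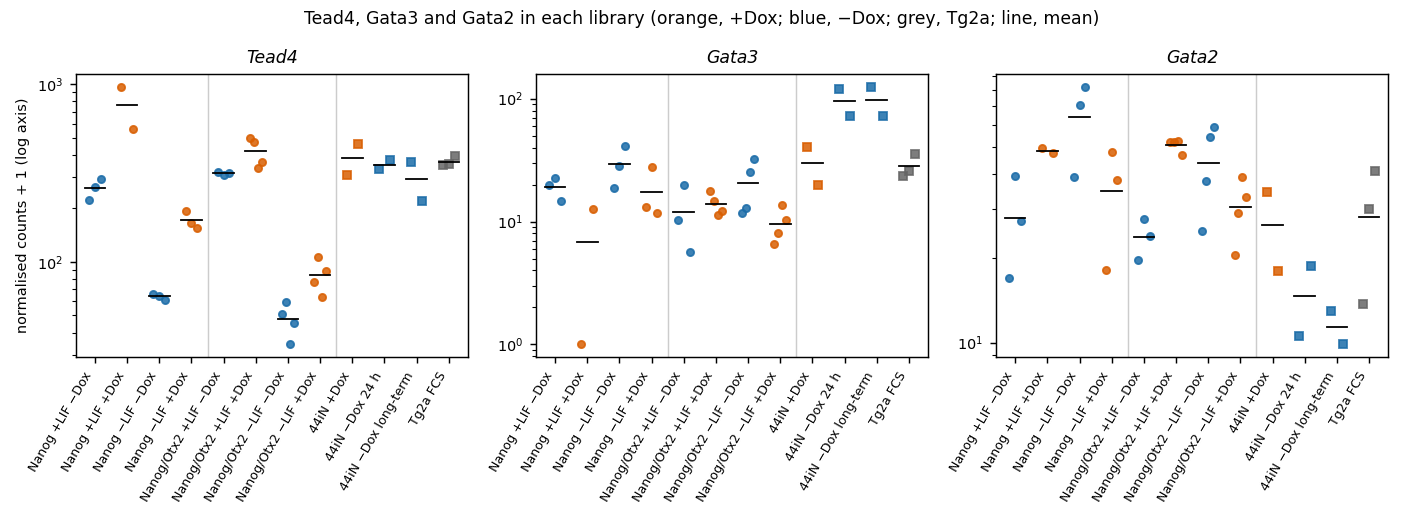
Normalised counts plus 1 of Tead4, Gata3 and Gata2 in each of the 35 libraries, on a log axis, by condition (orange, with Dox; blue, without Dox; grey, Tg2a; line, mean). Tead4 was lowest in SunTag cells without LIF and Dox, and Gata3 was highest in 44iN cells without Dox.

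Gata2 and Gata3, zinc finger factors that act together in trophoblast development and also in blood and neural lineages, were low in SunTag cells, at 16.1 to 81.1 and 0 to 40.6 normalised counts per library. With the Nanog/Otx2 guides with LIF, Gata2 rose with Dox from 18.8, 26.6 and 23.1 to 51.2, 51.3, 51.5 and 45.8 (log2 fold change 1.14, standard error 0.32, adjusted p = 0.02). The Dox libraries lay close together and above the others. Without LIF it gave 24.1, 37, 53.3 and 57.9 without Dox and 19.6, 28, 38.1 and 32.2 with it, with an overlap (log2 fold change -0.49, standard error 0.28, adjusted p = 0.25). The Dox response thus differed with LIF, by -1.63 on the log2 scale (standard error 0.42, adjusted p = 0.0249). Without uninduced library C1ON3-1 with LIF, the rise with Dox was lost (adjusted p = 0.106), and so was the difference with LIF (0.0833).

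On LIF withdrawal in Nanog/Otx2 cells, Gata2 rose without Dox (log2 fold change 0.86, standard error 0.32, adjusted p = 0.0372) and fell with Dox (log2 fold change -0.77, standard error 0.28, adjusted p = 0.0414). The first call was lost without any 1 of 5 of the 15 libraries (0.0501 to 0.157), namely C1ON3-1, C1ON3-2 and C2ON3-1 with LIF alone, and C2ON3-1 and C2ON3-2 with neither, and without a filter on low counts (0.0574). The second was lost without any 1 of 7 (0.06 to 0.12), namely C1ON3-1, C1ON3-2, C2ON3-1 and C2ON3-2 with LIF and Dox, and C1ON3-1, C1ON3-2 and C2ON3-2 with Dox alone, and without a filter (0.0801). Among Nanog SunTag cells Gata2 gave 16.1, 38.6 and 26.2 with LIF and 38.3, 69.8 and 81.1 without it where Dox was absent, and the groups touched (log2 fold change 1.17, standard error 0.47, adjusted p = 0.0629). Once the clone was fitted as a block this difference passed (1.33, adjusted p = 0.0359). With Dox it gave 48.5 and 46.6 with LIF and 17.1, 47.2 and 37 without (log2 fold change -0.49, standard error 0.50, adjusted p = 0.471).

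Gata3 passed the test in none of the 8 SunTag comparisons of LIF and Dox. In Nanog SunTag cells it gave 18.7, 21.8 and 13.7 normalised counts with LIF alone, 0 and 11.7 with LIF and Dox, 17.9, 27.1 and 40.6 with neither and 12.1, 26.6 and 10.8 with Dox alone. For Nanog/Otx2 cells it gave 9.39, 18.7 and 4.63 with LIF alone and 16.7, 13.6, 10.3 and 11.2 with LIF and Dox. Without LIF they gave 10.7, 11.9, 24.1 and 31.2, and 5.59, 7, 12.7 and 9.21 with Dox. These groups overlapped at either LIF state. The smallest adjusted p of Gata3 in these 8 comparisons was that of Dox without LIF in Nanog/Otx2 cells (log2 fold change -1.11, standard error 0.42, adjusted p = 0.0824).

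Cdx2, the homeobox factor that specifies the trophectoderm, stayed near the limit of detection, with 0 to 54 estimated counts per library. With LIF it gave 0 to 4.02 normalised counts over the 12 SunTag libraries, Dox or not. With neither LIF nor Dox it gave 7.33, 18.1 and 14.8 in Nanog and 4.35, 7.93, 14.2 and 18.9 in Nanog/Otx2 cells, each of these 7 libraries lying above all 12 with LIF. With Dox alone it gave 0.836, 4.29 and 7.23 in Nanog cells. Nanog/Otx2 cells with Dox alone gave 4.66, 3.5, 2.54 and 13.2. The main fits excluded Cdx2 from the SunTag tests. With edgeR's own filter or none, LIF withdrawal without Dox gave an adjusted p of 0.0746 and 0.109 in Nanog cells and of 0.0326 and 0.0428 in Nanog/Otx2 cells, which passes in the latter. The log2 fold change without a filter was 2.06 there, with a standard error of 0.74, and for Nanog cells no fold is given, since the uninduced libraries with LIF held 1, 1 and 3 estimated counts.

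Elf5, the ETS factor that keeps trophoblast stem cells self-renewing and whose promoter is methylated in ES cells, was the scarcest of the 9 genes, with 0 to 25 estimated counts per library and none in 7 of 35. Among Nanog/Otx2 cells with LIF it gave 1.34, 0.567 and 0 normalised counts without Dox and 7.31, 7.54, 5.62 and 2.04 with it. Without LIF it gave 0.669, 0, 1.67 and 3.34 without Dox and 6.52, 3.5, 6.34 and 4.6 with it, so that each Dox library was above each library without Dox at that LIF state. Neither difference passed the test without a filter (adjusted p = 0.0622 with LIF and 0.0953 without), and no fold is given, since the uninduced libraries held 2, 1 and 0 estimated counts with LIF and 2, 0, 2 and 3 without. With the Nanog guide it gave 2.68, 1.68 and 1.25 with LIF alone, 9.33 and 4.49 with LIF and Dox, 0, 1.29 and 1.23 with neither and 10.4, 3.43 and 0 with Dox alone.

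Hand1, the bHLH factor of trophoblast giant cells that is also made in lateral mesoderm, gave 61.5 and 11.7 normalised counts in Nanog SunTag cells with LIF and Dox, from 33 and 13 estimated counts. Without Dox these cells gave 0, 3.35 and 3.75 with LIF (0, 2 and 3 estimated counts) and 9.77, 2.59 and 9.83 without, and with Dox alone 2.09, 8.57 and 0.904. Library C1-1 with LIF and Dox was the highest of all 35. Only this group let Hand1 pass the filter on low counts, so a fall from it was favoured by the filter and the test of LIF withdrawal with Dox is given as a description (log2 fold change -3.18, standard error 0.90, adjusted p = 0.0192). Without that library the call was lost (-1.61, adjusted p = 0.297), as it was without C1-1 or C2-2 with Dox alone (0.0734 and 0.0555). Dox with LIF did not pass (adjusted p = 0.15), and no fold is given since no uninduced library had more than 3 counts. In Nanog/Otx2 cells, Hand1 ranged over 0 to 12.5 in all 15 libraries and was not tested.

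**Figure D4:**
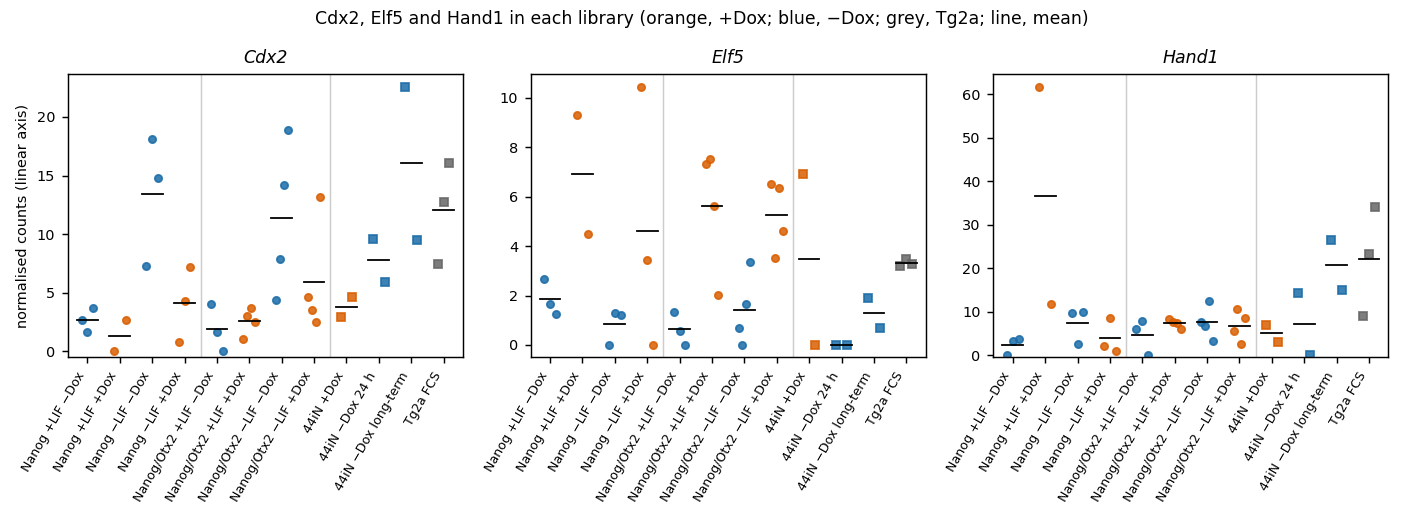
Normalised counts of Cdx2, Elf5 and Hand1 in each of the 35 libraries on linear axes, by condition (orange, with Dox; blue, without Dox; grey, Tg2a; line, mean). The highest value of Hand1 came from 1 Nanog SunTag library with LIF and Dox.

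Between the guide sets, with Dox and without LIF, 4 of 7 tested members differed, beside 41% of genes. Tead4 was lower with the Nanog/Otx2 guides, at 76.4, 105, 62.2 and 88.1 normalised counts against 193, 165 and 154 with the Nanog guide (log2 fold change -1.11, standard error 0.20, adjusted p = 0.000182). The keratins were higher, Krt19 at 446, 297, 184 and 215 against 135, 97.7 and 76.8 (log2 fold change 1.39, standard error 0.40, adjusted p = 0.00792). Krt8 differed by 0.94 (standard error 0.18, adjusted p = 0.000367) and Krt18 by 0.92 (standard error 0.23, adjusted p = 0.00294). The guide sets were separate lines with separately named libraries, so the Otx2 guide cannot be told apart from line or library set here. With neither LIF nor Dox, the mean with the Nanog/Otx2 guides was also higher for the keratins and lower for Tead4. It was 985 against 552 for Krt8, 1533 against 1100 for Krt18, 118 against 75.6 for Krt19 and 46.5 against 62.9 for Tead4, which was not tested. The Dox responses without LIF, which take each set's own uninduced libraries into account, differed between the sets for 0 of 7 tested members in edgeR, beside 0.0308% of genes. Of these, Tead4 had an unadjusted p of 0.0441 (log2 fold change -0.63, standard error 0.30, adjusted p = 0.868), the only member under 0.05, and DESeq2 passed none of them.

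In 44iN cells the keratins were lowest 24 h after Dox removal, and Gata3 without Dox lay above its level in every other library of the series. Krt8 gave 210.1 and 235 normalised counts with Dox, 106 and 62.1 24 h after its removal and 358 and 413 in the long term. Krt18 gave 123 and 85.5 with Dox, 79.2 and 38.5 at 24 h and 287 and 485 in the long term. Krt19 gave 17.8 and 29.5 with Dox, 16.8 and 5.92 at 24 h (from only 7 and 2 estimated counts) and 49.4 and 54.5 in the long term. For all 3 keratins the libraries at 24 h were below those with Dox, narrowly so for Krt18 and Krt19, and those of the long term were above both. With 2 libraries in each group such an order describes these libraries only, and how many other genes share it was not counted. Gata3 gave 39.6 and 18.7 with Dox, 120.0 and 71 at 24 h and 124 and 70.8 in the long term, both groups without Dox lying above the group with Dox. Tead4 gave 306 and 462 with Dox, 331 and 373 at 24 h and 362 and 219 in the long term, with overlap. Gata2 gave 33.7 and 17.1 with Dox, 9.6 and 17.7 at 24 h and 12 and 8.85 in the long term.

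Dox against 24 h without it called 0 of 6 tested members and 0 of 14376 genes in edgeR, with 1023 genes at an unadjusted p under 0.05, and DESeq2 called 141 genes and none of these members. Krt8 and Gata3 were the 2 members with an unadjusted p under 0.05. The log2 fold change was 1.50 for Krt8 (standard error 0.44, adjusted p = 0.508) and -1.60 for Gata3 (standard error 0.56, adjusted p = 0.611). With the replicate number as a block both passed, at an adjusted p of 0.000132 for Krt8 and 0.00195 for Gata3, although the labels give no more than a shared number for these pairs. In the joint fit with SunTag cells with LIF, 0 of 7 tested members passed in edgeR, beside 0.307% of genes, with 3 at an unadjusted p under 0.05 (Krt8, Tead4 and Hand1) and 2 passing in DESeq2 (Krt8 and Tead4). The adjusted p was 0.0829 for Krt8 and 0.164 for Tead4, and that of Krt8 passed with a block for clone and number (0.0496). The Dox responses of SunTag with LIF and 44iN cells differed for 0 of 7 tested members in edgeR, with Tead4 and Hand1 at an unadjusted p under 0.05 and none passing in DESeq2. Hand1 entered both tests only through its high counts in Nanog SunTag cells with LIF and Dox. Its p in them was thus favoured by the filter and is not read as a response. Over all genes edgeR passed 0, with 514 at an unadjusted p under 0.05, and DESeq2 passed 16.

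Against wild-type Tg2a cells, long-term 44iN cells had more Gata3 and less Krt19, 2 of 7 tested members, beside 8.61% of genes. Gata3 gave 22.3, 24.9 and 34.6 normalised counts in Tg2a cells, all below the 124 and 70.8 of the long-term cells (log2 fold change 1.75, standard error 0.36, adjusted p = 0.0254). Krt19 gave 86, 233 and 363 in Tg2a cells, all above the 49.4 and 54.5 of the long-term cells (log2 fold change -2.21, standard error 0.55, adjusted p = 0.0469). Each call was lost without either long-term library or Tg2a library 2 (0.0978 to 0.284 for Gata3 and 0.118 to 0.331 for Krt19), and that of Krt19 also with edgeR's own filter (0.053) or with all 9 libraries of these lines in the fit (0.0668). Krt8 gave 501, 838 and 1384 in Tg2a cells (log2 fold change -1.31, standard error 0.37, adjusted p = 0.0681) and Krt18 383, 746 and 1265 (log2 fold change -1.12, standard error 0.46, adjusted p = 0.158). The keratins spread widely among the Tg2a libraries, library 3 being the highest for all 3.

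Long-term 44iN cells against those with Dox called 0 of 7 tested members in edgeR, beside 12.1% of genes. The log2 fold change was 1.71 for Gata3 (standard error 0.49, adjusted p = 0.0533) and 1.88 for Krt18 (standard error 0.55, adjusted p = 0.058), and both passed in DESeq2 (adjusted p = 0.0117 and 0.00486). Endoderm genes, markers of another embryonic and extraembryonic lineage, were read in the same comparison. All 7 tested of 8 rose in the long-term cells, with a median log2 fold change of 4.74. Their summed level was 207 to 713 normalised counts with Dox, 612 to 1298 at 24 h, 8601 to 13125 in the long term and 6107 to 8618 in Tg2a cells. Their part in the levels of keratins and Gata3 was not tested. Hand1 gave 6.94 and 3.11 with Dox, 14.4 and 0 at 24 h, 26.4 and 15 in the long term and 9.03, 23.2 and 34 in Tg2a cells, with the highest values in the last 2 groups. Cdx2 gave 2.97 and 4.67 with Dox, 9.6 and 5.92 at 24 h, 22.5 and 9.53 in the long term and 7.43, 12.7 and 16.1 in Tg2a cells. The libraries with Dox were the lowest in normalised counts. Their estimated counts were 3 and 3, against 4 and 2 at 24 h, so these groups are not told apart. Elf5 was not read in either library at 24 h and gave 6.94 and 0 with Dox, 1.92 and 0.681 in the long term and 3.19, 3.47 and 3.28 in Tg2a cells.

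The rest of the trophoblast and epithelial programmes was read from lists of genes, which had been drawn up with earlier results of these data known. Of 14 other trophoblast regulators, LIF withdrawal without Dox in Nanog SunTag cells gave 14 tested genes, of which 3 rose and 4 fell, beside 41.5% of all genes called, with a median log2 fold change of 0.01, beside -0.05 over all genes. Tfap2c, an AP-2 factor of trophoblast and germ cells, fell (-3.14), as did Sox15 (-2.27), while Id2, an inhibitor of bHLH factors, rose (2.38), as did Eomes (1.74), a T-box factor of trophoblast stem cells and of the primitive streak. With the Nanog/Otx2 guides the list gave 13 tested genes, of which 4 rose and 4 fell, beside 49.8% of all genes, with a median log2 fold change of 0.07, beside -0.01. Tfap2c (-3.31) and Sox15 (-2.83) fell there too. Like Tead4, they rose with Dox without LIF, Sox15 by 2.23 and Tfap2c by 1.89 in Nanog and by 1.98 and 0.96 in Nanog/Otx2 cells. Of 12 products of differentiated trophoblast, such as placental lactogens, 2 passed the filter in Nanog SunTag cells, of which 0 rose and 1 fell, namely Cyp11a1 (-3.48), which encodes the enzyme that starts steroid synthesis. Between 4 and 10 of the 12 had no more than 3 estimated counts in any library of a condition, the fewest being in Tg2a cells.

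Of 13 genes of the Tead and Hippo list, LIF withdrawal without Dox in Nanog SunTag cells gave 8 that rose, 0 that fell and 5 that did not pass, beside 41.5% of all genes called (median log2 fold change 0.95, beside -0.05). In Nanog/Otx2 cells 9 rose and 3 fell, as Tead4 did, beside 49.8% of all genes (median 0.90, beside -0.01). Tead3, a paralog, rose by 2.67 and 2.38, and Ctgf, a secreted protein used as a readout of Yap and Tead, by 2.75 and 2.05. Amot, a junctional partner of Yap, rose by 2.18 and 1.90. With Dox without LIF, Ctgf fell by 1.45 in Nanog and by 1.17 in Nanog/Otx2 cells, where Tead4 rose.

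Of 14 other epithelial genes, LIF withdrawal without Dox in Nanog SunTag cells gave 8 that rose, 1 that fell and 5 that did not pass, beside 41.5% of all genes called (median log2 fold change 0.98, beside -0.05). The counts were also 8, 1 and 5 in Nanog/Otx2 cells, beside 49.8% (median 0.67, beside -0.01). The tight junction genes Cldn7 (3.96 and 3.32), Cldn6 (3.54 and 2.74) and Ocln (2.27 and 2.09) rose in both, and Krt23, another keratin, fell in Nanog SunTag cells (-3.75). Dox with LIF in Nanog/Otx2 cells raised 4 of the 14, among them Krt7 (1.25), a keratin of simple epithelia, and Krt23 (2.16), and lowered 0, beside 22.9% of all genes called. Among Nanog SunTag cells with LIF it raised 0.

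Markers of other lineages changed in the same comparisons, in which 41.5% of all genes were called in Nanog and 49.8% in Nanog/Otx2 cells. On LIF withdrawal without Dox, 2 of 9 tested mesoderm genes rose and 2 fell in Nanog SunTag cells, and 2 of 7 rose and 4 fell in Nanog/Otx2 cells. Endoderm genes gave 0 that rose and 5 that fell of 6, and 1 and 1 of 7. Surface ectoderm genes gave 3 and 1 of 4, and 1 and 2 of 5. Of 8 pluripotency genes, 8 fell in Nanog and 7 in Nanog/Otx2 cells, with medians of -4.42 and -4.44. In each of these 4 groups 2 to 4 of 12 mesoderm, 0 to 1 of 8 endoderm and 0 to 2 of 7 surface ectoderm genes had no more than 3 estimated counts in any library. The part of these lineages in the change of the keratins and Tead4 was not tested. The summed mesoderm level was 637 to 877 with LIF and 394 to 458 without it in Nanog, and 531 to 843 and 237 to 327 in Nanog/Otx2 cells. The sum was thus lower without LIF, although the median log2 fold change of the tested mesoderm genes was 1.41 in Nanog cells (-0.89 in Nanog/Otx2 cells). The summed endoderm level was 787 to 1770.1 with LIF and 1588 to 1886 without it in Nanog cells, with overlap although 5 of its genes fell, and 403 to 1180.4 and 1045 to 2048 in Nanog/Otx2 cells. The summed surface ectoderm level was higher in every library without LIF, at 1081 to 1558 with and 2794 to 3582 without LIF in Nanog and 1176 to 2031 and 2613 to 3751 in Nanog/Otx2 cells. The median log2 fold change of its tested genes was 1.98 in Nanog but -1.13 in Nanog/Otx2 cells, where the sum did not follow the typical gene.

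**Figure D5:**
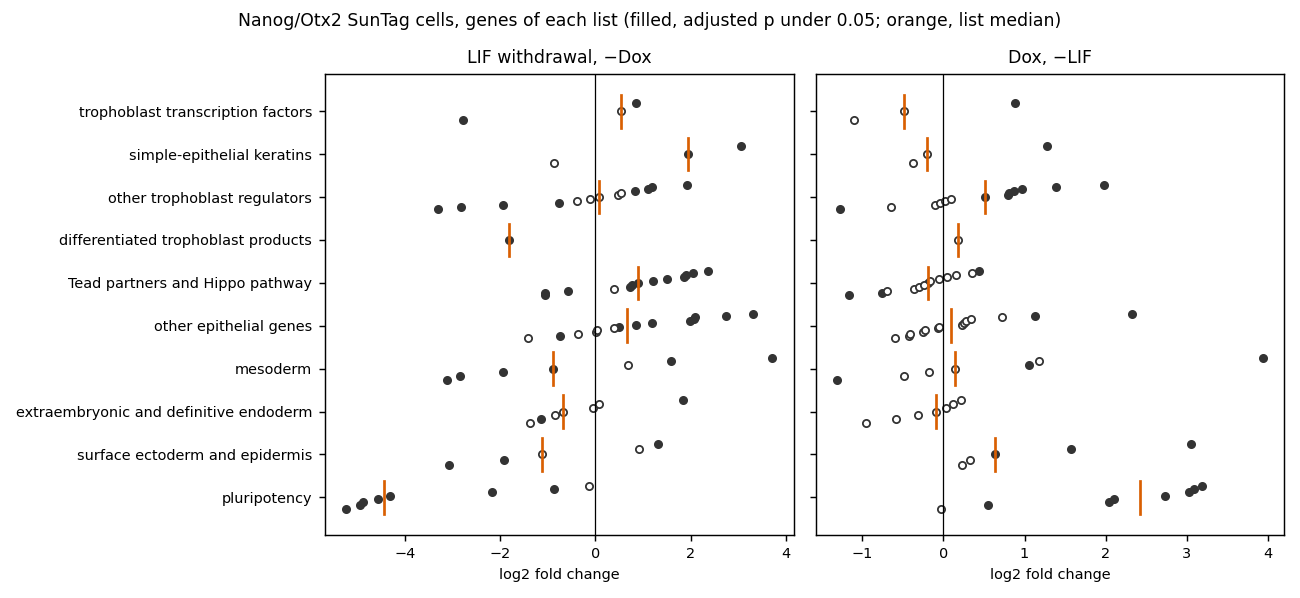
Log2 fold changes of single genes (points) in the lists of trophoblast, epithelial and other lineage genes in Nanog/Otx2 SunTag cells, for LIF withdrawal without Dox and for Dox without LIF. Filled points passed an adjusted p of 0.05 in edgeR and orange lines are list medians. On the left, pluripotency genes lay far below 0 and the Hippo and epithelial lists had medians above 0. On the right, 7 of 8 pluripotency genes rose, beside 17.3% of all genes called in either direction. The 8 include Nanog, which the guide targets, so its rise with Dox was set by the design.

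The genes whose levels over the 12 conditions were most like those of a member were sought among the 12621 genes averaging 50 or more normalised counts, by the root mean square difference of centred log2 condition means. Nearest to Tead4 were Grhl3 (0.322), Calcoco2 (0.329) and Anxa8 (0.348). Nearest to Krt8 were Mbp (0.408), Slc22a23 (0.413) and Fhdc1 (0.416), and to Krt18 Igsf1 (0.41), Lrrn1 (0.415) and App (0.474). Krt8 and Krt18 lay 0.57 apart, farther than these. Nearest to Krt19 were Aldoc (0.54), Pygl (0.561) and Slc17a7 (0.573). The distance to the median gene was 1.28 for Tead4, 1.16 for Krt8, 1.49 for Krt18 and 1.57 for Krt19. The condition means rest on 2 to 4 libraries each.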

How the data were processed

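The 9 genes and all gene lists were chosen with earlier results of these data known. RNA was read from 35 bulk libraries (TruSeq stranded mRNA kit, single-end reads of 65 bases). The authors used STAR for alignment to mm9 and RSEM for quantification, and deposited the estimated counts as whole numbers. They also deposited a signal, the estimated counts divided by 1 DESeq2 size factor per library over all 35 libraries, which is called normalised counts here. CASAVA 1.8 is also named in the submitters' processing notes. RSEM shares reads between similar transcripts, which can move the counts of paralogs. The 3 libraries of Tg2a cells in 2i and the 36 samples of binding and chromatin assays were not used here.

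Libraries were grouped by guide, LIF, Dox and cell line, as labelled. A gene entered a model where all libraries of some condition held 10 or more normalised counts, and its estimated counts were tested by the quasi-likelihood method of edgeR 4.0.16 (R 4.3.3) with TMM scaling and Benjamini-Hochberg adjustment over all genes tested, with calls at an adjusted p under 0.05. Separate models of the 11 Nanog and the 15 Nanog/Otx2 libraries held terms for LIF, Dox and the interaction, all 26 were joined for the guides, and 44iN and Tg2a libraries were compared by group, also jointly with SunTag cells with LIF. SunTag libraries of different conditions shared a clone, but the main fits held no term for it, and blocks were fitted only as alternatives. Deviations from group means correlated at 0.17 within a clone against -0.16 between clones in Nanog cells, and at 0.32 against -0.11 for clone and number in Nanog/Otx2 cells. Deviations within a small group cancel, so the values of each contrast partly mirror each other. Totals per library ranged from 6107512 to 92244655 counts, and groups whose libraries all had 3 counts or fewer of a gene were given no fold. The 9 genes were named in every comparison, list examples were the called genes with the largest changes, up to 4 a comparison, and the 3 nearest patterns were named for genes with a mean of at least 50. Alternatives were DESeq2 1.42.0, its size factors in edgeR, other filters, replicate blocks, fewer or more libraries in the fit and each library left out. The steps were tested on simulated counts with 200 changed genes. Tables and figures were made with pandas 2.3.3 and matplotlib 3.10.9.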

Additional observations from a re-analysis of the deposited data

Results flagged for a closer look

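In groups of 4 libraries, 2 libraries stood apart, their gap to the nearest library being most of the range of the group by Dixon's criterion. Chance gives about 1 such flag in 20 groups, and 27 groups of a gene were looked at. Gata2 in Nanog/Otx2 cells with LIF and Dox had a lowest library, C2ON3-2, at a gap of 0.946 of the range, which itself spanned only 45.8 to 51.5 normalised counts. Krt8 in Nanog/Otx2 cells with Dox and without LIF had a highest library, C1ON3-1, at a gap of 0.862, with 1207 normalised counts against 683 to 755 in the others.

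The response to Dox differed between cells without and with LIF for 5 pairs of a gene and a guide set, by edgeR's test of the difference. On the log2 scale, the response without LIF minus that with LIF was -1.94 for Krt8 and -1.75 for Krt18 in Nanog SunTag cells. It was -1.0 for Krt8, -1.39 for Krt18 and -1.63 for Gata2 in Nanog/Otx2 cells.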

How the results depend on the processing

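Of the comparisons of a single member with a setting, 1926 kept their direction and their side of the threshold, 51 came to pass it, 75 ceased to and 46 changed sign, none of the last with a call in either fit. Signs changed in the difference of the Dox responses with and without LIF for Krt19, at -0.0232 with DESeq2, -0.0233 with its size factors and -0.0141 with edgeR's filter in Nanog cells, and at -0.11 with the block and -0.14 with the block by column number (an alternative chosen after seeing the data) in Nanog/Otx2 cells. With these blocks in that order Gata3 gave -0.16 and -0.15 for Dox with LIF in Nanog/Otx2 cells. Gata2 gave 0.0915 with the block between the guides, and Krt18 0.0205 with DESeq2, 0.0222 with its size factors and 0.13 with the block for the difference between the systems. With single libraries left out, log2 values spanned 0 from -0.15 to 6.38 for Gata3, -0.38 to 0.35 for Tead4 and -0.32 to 0.43 for Krt19 in the difference in Nanog cells, and from -0.23 to 0.60 for Krt19 in that in Nanog/Otx2 cells. They did so from -0.21 to 0.64 for Gata3 in Dox with LIF in Nanog/Otx2 cells, -0.58 to 0.0773 for Gata2 between the guides, -0.75 to 0.0895 for Gata3 and -0.0863 to 0.30 for Krt8 in the difference between guide sets, -0.15 to 0.49 for Tead4 in the 44iN response and -0.67 to 0.30 for Hand1 in long-term 44iN against Tg2a cells. The difference between the systems ranged from -0.72 to 0.37 for Gata2, -4.84 to 1.01 for Gata3, -1.24 to 4.93 for Hand1, -0.33 to 0.38 for Krt8 and -0.63 to 0.36 for Krt18.

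The number of members called changed as follows where all libraries were kept. In Nanog SunTag cells, LIF withdrawal without Dox called 5 with DESeq2 and with the clone as a block (Gata2 added) and 3 with the block by column number and with only the libraries of the contrast (Krt19 lost). LIF withdrawal with Dox called 4 with DESeq2 and with the clone as a block and 3 with no filter. Dox without LIF called 2 with DESeq2, with the block and with only the libraries of the contrast (Krt18 added). Dox with LIF called 0 with the block by column number and with only the libraries of the contrast, and the difference of the Dox responses called 1 with the former. With the Nanog/Otx2 guides, either block called 5 in LIF withdrawal without and with Dox (Krt19 added), 3 for Dox without LIF (Krt18 added) and 5 for Dox with LIF (Tead4 added). LIF withdrawal lost Gata2 with no filter, with Cdx2 called in its place without Dox and 3 called with Dox, and edgeR's filter called 5 without Dox (Cdx2 added). Dox without LIF called 1 with only the libraries of the contrast. The 44iN response called 2 with the block by number, namely Krt8 (adjusted p = 0.000132) and Gata3 (0.00195), and the joint fit 2 with DESeq2 or no filter and 1 with the block. Long-term 44iN against Tg2a cells called 3 with DESeq2 or no filter (Krt8 added) and 1 with edgeR's filter or with all 9 libraries of these lines, and against 44iN cells with Dox 2 with DESeq2 or no filter.

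Over all genes, Dox without LIF in Nanog SunTag cells called 803, against 1509 with DESeq2, 1375 with the block and 1951 with only the libraries of the contrast. Dox with LIF called 88, against 587, 293 and 0 (1137 at an unadjusted p under 0.05) in that order, 151 with no filter and 1 with the block by column number. The difference of these responses called 302, against 875 with DESeq2 and 709 with the block. For the Nanog/Otx2 set, Dox without LIF called 2702, against 5215 with the block and 5398 with that by column number. Dox with LIF called 3577, against 6401 and 6519, and the difference 1514, against 3407 and 3331. The difference between guide sets called 5, against 42 with DESeq2 and 10 with the block. The 44iN response called 0, against 141 with DESeq2, 434 with no filter, 1912 with the block and 123 with all 9 libraries. The joint fit called 48, against 410, 615 and 153 (DESeq2, no filter, block), and the difference between the systems 0, against 16, 111 and 2. Long-term 44iN against Tg2a cells called 1286, against 2294 with DESeq2 and 803 with all 9 libraries. The cause of these changes was not tested. The 44iN numbers pair the libraries only by name. Same-numbered deviations correlated at 0.56 against -0.56, but with 2 libraries a group the second value is the first with its sign changed. The contrast of these values therefore cannot show whether the pairing is real.

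With single libraries left out, a lone library in a group being taken to vary like the others, the range of members called and then of all genes was as follows in Nanog SunTag cells. LIF withdrawal gave 3 to 5 and 4894 to 7953 without Dox, and 1 to 4 and 2499 to 6998 with Dox. Dox gave 1 to 2 and 277 to 1617 without LIF, 0 to 2 and 3 to 142 with LIF, and 1 to 2 and 81 to 481 for the difference. For Nanog/Otx2 cells LIF withdrawal gave 3 to 5 and 6682 to 7777, and 3 to 5 and 4898 to 6041. Dox gave 1 to 3 and 1756 to 3007, 2 to 4 and 1962 to 4036, and 1 to 3 and 870 to 1847. Between guides the ranges were 4 to 4 and 5376 to 7560, and for their Dox responses 0 to 0 and 0 to 8. The 44iN response gave 0 to 2 and 61 to 3413, the joint fit 0 to 0 and 3 to 60, and the difference between the systems 0 to 0 and 0 to 0. Long-term 44iN cells gave 0 to 5 and 19 to 2618 against Tg2a, and 0 to 1 and 401 to 2033 against 44iN cells with Dox. Depth limited Cdx2, Elf5 and Hand1, at 0 to 3 estimated counts in many libraries.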

Other observations

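Keratins 8 and 18 assemble in pairs, and the ratio of their estimated counts was read in each library. A ratio of counts within a library is free of the library's depth. In Nanog SunTag cells without Dox, the ratio of Krt18 to Krt8 was 0.809 to 1.48 in the 3 libraries with LIF and 1.80 to 2.09 in the 3 without it. With Dox it was 0.728 to 0.789 with LIF and 1.23 to 1.64 without. Nanog/Otx2 cells without Dox had 0.541 to 0.897 with LIF and 1.51 to 1.62 without, and with Dox 0.709 to 0.916 and 1.22 to 1.61. In each of these 4 settings the libraries without LIF all had a higher ratio than those with LIF, which was not tested. In 44iN cells the ratio was 0.364 to 0.585 with Dox, 0.619 to 0.750 at 24 h and 0.801 to 1.17 in the long term, and in Tg2a cells it was 0.764 to 0.914. It is not a ratio of molecules, as the genes differ in length and Krt8 has a near copy.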
